A study of Mus musculus with 6 samples.

Results

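The genes described here are the nuclear genes for subunits of complex III (cytochrome bc1), complex IV (cytochrome c oxidase) and ATP synthase of the mitochondrial inner membrane, together with Cycs, the gene of cytochrome c. They are the rows of the count table whose symbol begins with Uqcr, with Cox4 to Cox8 or with Atp5, or is Cyc1 or Cycs, without symbols marked -ps and with at least 60 counts summed over the 6 libraries. This gave 44 of 56691 gene rows, of which 9 belong to complex III, 17 to complex IV and 17 to ATP synthase, with Cycs by itself. Next to the count threshold, Cox6c2 was inside with 87 counts, and Cox7b2 (5 counts), Cox8c (0 counts) and a second row of the symbol Atp5o (0 counts) were outside.

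RNA was sequenced from primary cardiomyocytes of hearts of neonatal mice (NMCMs). In the vector group (genotype Control, treatment Ad-cTNT vector) the cells carried the adenovirus without an insert. In the HMGB2 group (genotype HMGB2 overexpression, treatment Ad-cTNT-HMGB2) the virus carried HMGB2, a chromatin protein that bends DNA, and each group had 3 libraries. Both groups carry the Ad5-cTNT virus, there was no untreated group, and the cTNT (cardiac troponin T) promoter is active in cardiomyocytes and not in most other heart cells of such a culture. The mouse strain, age in days, amount of virus, time of collection and number of hearts pooled were not given in the sources used here.

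Complex III passes electrons from ubiquinol to cytochrome c, and complex IV passes them from cytochrome c to oxygen. Both move protons across the inner membrane, and ATP synthase uses their return to make ATP. Each complex combines nuclear subunits with some that mitochondrial DNA encodes, and in rodent heart and skeletal muscle heart-type isoforms of complex IV (Cox6a2, Cox7a1, Cox8b) take the place of the liver-type isoforms (Cox6a1, Cox7a2, Cox8a) as the muscle matures.

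The upstream sequences of 4 members are shown because regulators known to act on such genes are described further on. Whether any motif in them has a part in the changes of expression was not tested. RefSeq gave a window of 300 bases (250 before and 50 after the annotated start, build GRCm38.p6) for 33 of the 44 members, in 36 windows. Uqcrc2, Uqcrb, Uqcrq, Cyc1, Cox4i1, Cox4i2, Cox6a2, Cox6c, Cox6c2, Atp5a1 and Atp5mpl were not matched. The 250 bases before the start are printed 5′ to 3′ along the gene, with the matches to the motifs named below in capitals, apart from E-boxes. Cox6a1 (a liver-type isoform, chr5:115348959-115349208, minus strand) holds an NRF1 and an ETS match. Cox8b (a heart-type isoform, chr7:140900447-140900696, minus strand) holds no match in this stretch. Atp5g3 (a c-ring gene, chr2:73911327-73911576, minus strand) holds an ERR match, and Uqcrh (complex III, chr4:116075071-116075320, minus strand) an ETS match.
Cox6a1: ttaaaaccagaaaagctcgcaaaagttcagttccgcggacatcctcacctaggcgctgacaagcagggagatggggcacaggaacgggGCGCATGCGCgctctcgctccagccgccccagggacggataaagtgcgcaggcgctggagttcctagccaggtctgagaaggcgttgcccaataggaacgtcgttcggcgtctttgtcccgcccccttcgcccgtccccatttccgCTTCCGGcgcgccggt
Cox8b: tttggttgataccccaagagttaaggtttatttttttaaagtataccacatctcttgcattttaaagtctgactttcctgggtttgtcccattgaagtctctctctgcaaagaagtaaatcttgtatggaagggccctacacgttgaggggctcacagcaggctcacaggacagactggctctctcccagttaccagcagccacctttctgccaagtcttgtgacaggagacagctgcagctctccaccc
Atp5g3: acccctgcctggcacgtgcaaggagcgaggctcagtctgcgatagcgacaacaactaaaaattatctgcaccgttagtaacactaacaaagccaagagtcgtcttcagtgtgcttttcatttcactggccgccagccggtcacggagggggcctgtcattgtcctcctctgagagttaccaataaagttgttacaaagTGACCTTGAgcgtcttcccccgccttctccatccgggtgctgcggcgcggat
Uqcrh: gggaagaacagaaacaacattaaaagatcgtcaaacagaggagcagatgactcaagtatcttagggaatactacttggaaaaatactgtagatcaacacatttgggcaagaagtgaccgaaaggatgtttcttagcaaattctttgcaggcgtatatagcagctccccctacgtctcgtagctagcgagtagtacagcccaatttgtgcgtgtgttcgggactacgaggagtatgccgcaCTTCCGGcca

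Motifs were searched on both strands of the whole windows, and a match is only a match of letters. Members were counted as genes with a match in any of their windows. The background was counted as windows, of all RefSeq genes whether or not they are expressed here, so the shares are only roughly comparable. The ETS motif CCGGAAG, which GABP and other ETS factors bind, was in 11 of the 33 members (33.3%), against 8.86% of all 32851 RefSeq windows. These were Uqcrh and Uqcr11 of complex III, Cox6a1, Cox6b1 and Cox8a of complex IV, and Atp5e, Atp5h, Atp5j, Atp5k, Atp5l and Atp5md of ATP synthase. The NRF1 motif GCGCATGCG was in 7 members (Uqcrc1, Uqcr11, Cycs, Cox6a1, Atp5k, Atp5l and Atp5g2, 21.2%) and in 1.75% of all windows, and in Cox6a1 it matches on both strands, overlapping itself. The ERR motif TCAAGGTCA was in 1 member (Atp5g3, 3.03%) and in 0.423% of all windows. The MEF2 letters CTANNNNTA were in 8 members (24.2%) and in 21% of all windows, and TATAAA was in 3 members (Cox8b, Atp5l and Atp5md) and in 13.6% of all windows. The YY1 letters AAGATGGCG were in 2 members (Atp5j and Atp5j2, 6.06%) and in 1.40% of all windows. E-boxes, CANNTG, were in 24 members (72.7%) and in 72.3% of all windows. The median GC content was 56.2% in the member windows and 52.7% in all windows, and its part in these shares was not tested.

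Most members were somewhat higher with HMGB2, and 10 of 44 passed the test, all of them upward. Values are CPM, counts scaled to the same library size, on totals scaled by the trimmed mean of M values. HMGB2 was compared with vector by edgeR's quasi-likelihood test, and an adjusted p under 0.05 (Benjamini-Hochberg over all 15429 genes tested) counted as past the threshold. Of all tested genes 14.4% were higher and 10.8% lower at that threshold, 25.2% in either direction, against 22.7% of the members higher and 0 lower. At an unadjusted edgeR p under 0.05, 17 members were higher and 0 lower, and DESeq2 gave 12 higher and 0 lower. The log2 fold change was positive for 41 members and for 49.8% of all tested genes. Its median was 0.24 over the members (1.18-fold) and -0.0022 over all tested genes. In 13 members every HMGB2 library lay above every vector library, as in 21.6% of all tested genes, and the reverse was seen in 0 members and in 18.9% of all tested genes.

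**Figure D1:**
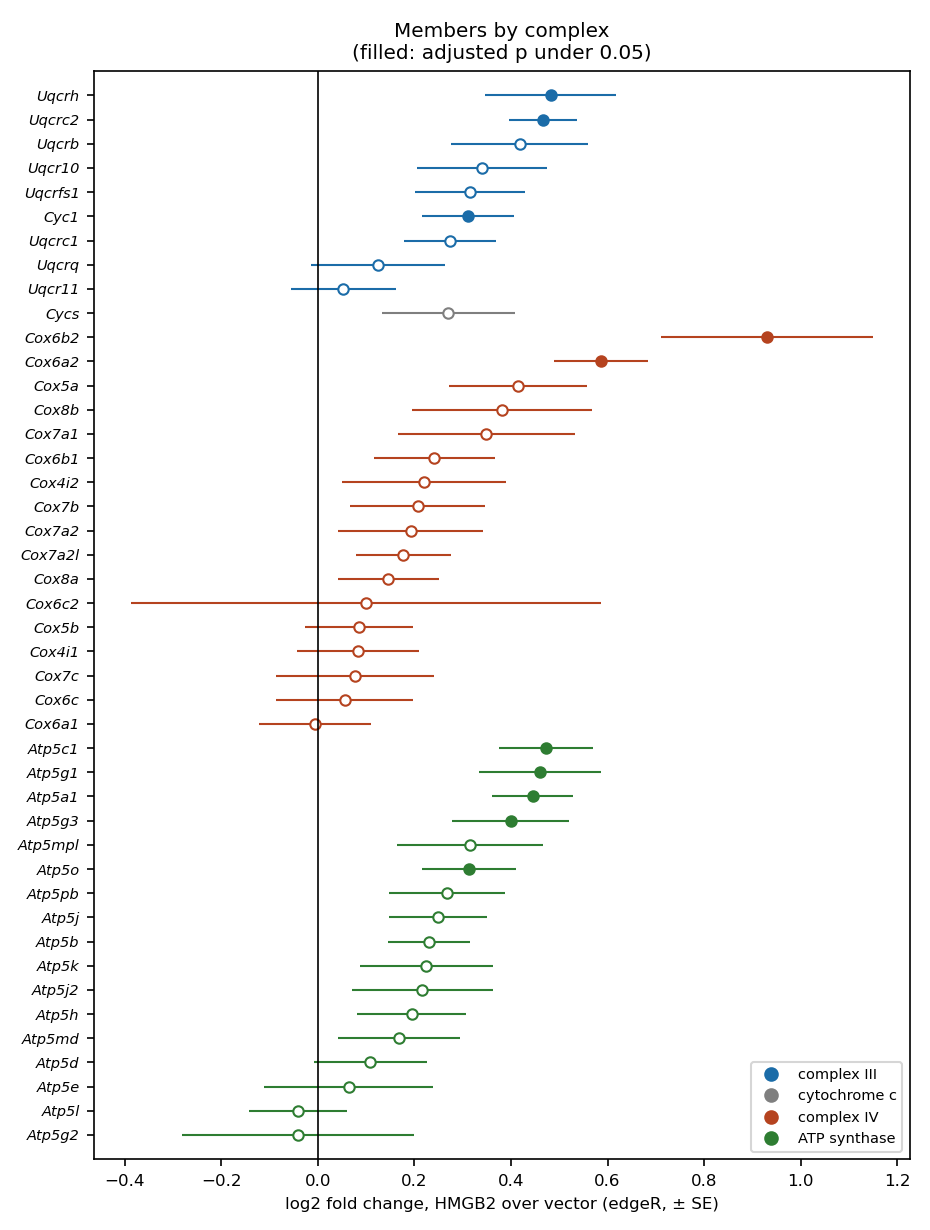
Log2 fold change of each of the 44 members (x axis, HMGB2 over vector, edgeR, bars ± SE), ordered within complex III, cytochrome c, complex IV and ATP synthase, with filled points for an adjusted p under 0.05. The 10 filled points lie between 0.31 and 0.93, and the 3 members below 0 are Cox6a1, Atp5l and Atp5g2.

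Other measured features of the libraries moved with the groups. Totals were 12498215 to 14101385 counts with vector and 14497676 to 16618365 counts with HMGB2. Hmgb2 itself was at 46.8, 44.8 and 36.3 CPM with vector and at 175.1, 196.3 and 181.8 CPM with HMGB2 (edgeR adjusted p = 1.89e-06). The 10 cardiomyocyte markers summed to 11030 to 11120 CPM with vector and to 20710 to 21260 CPM with HMGB2, 9 of them rose (all but Ryr2), and their median log2 fold change was 0.75. The 8 fibroblast markers, of which 2 fell, summed to 4954 to 5028 CPM and 4404 to 4497 CPM. The 6 endothelial markers, of which 2 fell, summed to 2460 to 2494 CPM and 2127 to 2174 CPM, and the 6 macrophage markers, of which 3 fell, to 38.4 to 40.8 CPM and 25.6 to 30.1 CPM. Beside these calls, 14.4% of all tested genes were higher and 10.8% lower. Leaving out a library gave 8 to 10 cardiomyocyte markers that rose. It gave 1 to 4 fibroblast, 0 to 2 endothelial and 1 to 3 macrophage markers that fell. Of 7 smooth muscle and pericyte markers 1 rose and 1 fell, and the 3 erythroid markers, too low to be tested, held at most 1.1 CPM together. The 4 epicardial markers, of which 0 passed, summed to 98.4 to 107 CPM with vector and to 102.8 to 109 CPM with HMGB2. Markers had to hold counts to be tested, so it is these sums that show RNA of marker genes of other heart cells. In bulk RNA, more cardiomyocytes and more of a transcript in each cardiomyocyte cannot be told apart.

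The libraries vector 1 and HMGB2 3 stood apart from the others of their groups. Vector 1 was the highest vector library for 41 of 44 members, with a median log2 gap of 0.38 to the others, and HMGB2 3 was the highest HMGB2 library for 40 of 44 members, with a median gap of 0.25. Each library's deviation from the mean of the others in its group was related to gene length over 15429 genes, which are not independent. Spearman's rho was -0.445 in vector 1, -0.409 in HMGB2 3 and 0.262 to 0.336 in the other libraries. The positive values are not separate findings, since a library that stands apart shifts the mean that the others are set against. Members are short, with a median length of 1568 bases against 4159 bases for all tested genes. For 37 members (84.1%) HMGB2 1 and HMGB2 2 both lay above vector 2 and vector 3, against 34.7% of all tested genes. For 38 members (86.4%) HMGB2 3 lay above vector 1, against 49.9%. The other way, HMGB2 1 and HMGB2 2 both lay above vector 1 for only 14 members (31.8%), against 45.2% of all tested genes. The rise thus depended on which libraries were set against each other.

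The number of calls depended on which libraries were kept, and on vector 1 more than on any other single library. Without vector 1 and HMGB2 3 together, 32 members rose and 0 fell, where 20.9% of all genes tested were higher. Without vector 1 alone, 31 rose, where 16.0% of all genes were higher, and without HMGB2 3 alone 6 rose (13.6%), where 12.6% were higher. Leaving out vector 2, vector 3 or HMGB2 1 left 5 members that rose (11.4%), where 10.1%, 10.7% and 9.94% of all genes were higher, and leaving out HMGB2 2 left 6 (13.6%), where 10.2% were higher. Leaving out any 1 library but vector 1 thus gave a members' share near that of all genes. With each library's trend on gene length removed, 24 rose, where 17.0% of all genes were higher. Under all of these 0 members fell. Atp5a1, Atp5c1, Uqcrc2, Cox6a2 and Cox6b2 passed upward in each of the 18 alternatives run.

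**Figure D2:**
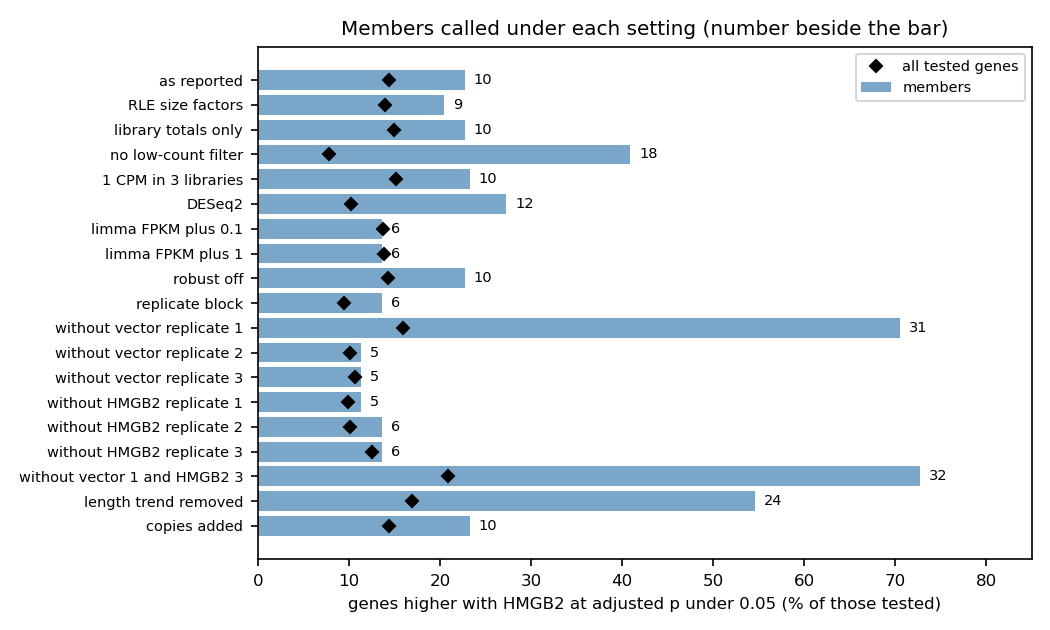
Percentage of members (bars, with the number of members beside them) and of all tested genes (diamonds) that were higher with HMGB2 at an adjusted p under 0.05, for the values as reported and for 18 alternatives. The bars run from 5 members without vector 2, vector 3 or HMGB2 1 to 32 members without vector 1 and HMGB2 3.

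**Figure D3:**
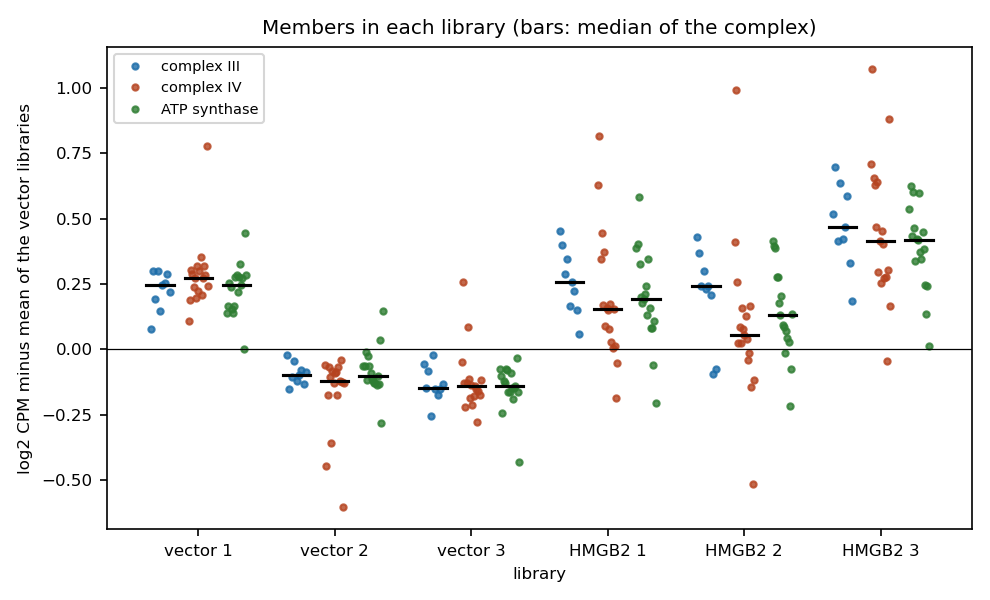
Members of complex III, complex IV and ATP synthase in each of the 6 libraries, as log2 CPM minus the mean log2 CPM of the 3 vector libraries (y axis), with black bars at the median of each complex. In each complex the median of vector 1 lies above those of vector 2 and vector 3, and that of HMGB2 3 above those of HMGB2 1 and HMGB2 2.

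In complex III 3 of 9 members rose (33.3%, against 14.4% of all tested genes), and all 9 had a positive log2 fold change, with a median of 0.32 (1.24-fold). Of the 4 core and catalytic subunits, 2 rose. Uqcrc2, a core protein on the matrix side (ENSMUSG00000030884, GRCm38 chromosome 7, 120635176 to 120659524, plus strand), had 226.6, 211.7 and 206.8 CPM with vector and 294.0, 289.4 and 307.4 CPM with HMGB2. The groups did not overlap, and vector 1 stood only slightly above the other vector libraries. Uqcrc2 was 1.38-fold higher with HMGB2 (0.47 ± 0.07 SE on the log2 scale, adjusted p = 0.00123 in edgeR). Of its exon bases, 19.7% overlap Pdzd9 on the other strand, and whether the counting used strand is not given in the sources used here. Uqcrc1, the other core protein, had 248.8, 206.5 and 221.2 CPM against 252.5, 263.7 and 301.5 CPM, with no overlap, but did not pass (0.27 on the log2 scale, adjusted p = 0.0646 in edgeR).

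Cyc1, the cytochrome c1 subunit that hands electrons to cytochrome c, had 179.4, 145.9 and 148.3 CPM with vector and 191.8, 185.9 and 209.5 CPM with HMGB2. Every HMGB2 library was above every vector library, though HMGB2 2 came close to vector 1. Cyc1 rose 1.24-fold (0.31 ± 0.09 SE on the log2 scale, adjusted p = 0.0395 in edgeR), a call lost without vector 2, vector 3 or any 1 HMGB2 library and with limma on log2(FPKM + 0.1) or log2(FPKM + 1) (adjusted p up to 0.153 over all alternatives). Uqcrfs1, the iron-sulfur protein of the complex, did not pass (0.31 on the log2 scale, adjusted p = 0.0735 in edgeR), and its groups touched, with vector 1 at 162.0 CPM and HMGB2 2 at 161.2 CPM.

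Of the 5 small subunits of complex III, Uqcrh rose. Uqcrh, the hinge protein near the site where cytochrome c docks, had 188.7, 137.9 and 138.3 CPM with vector and 202.2, 197.9 and 248.8 CPM with HMGB2, with no overlap and with vector 1 and HMGB2 3 as the high library of each group. It was 1.40-fold higher (0.48 ± 0.14 SE on the log2 scale, adjusted p = 0.0297 in edgeR), and its call was lost without vector 2, vector 3, HMGB2 1 or HMGB2 3 and with limma (adjusted p up to 0.123 over all alternatives). Uqcrb, the ubiquinone-binding protein, also had all HMGB2 libraries higher but did not pass (0.42 on the log2 scale, adjusted p = 0.0584 in edgeR). Uqcr10 (0.34) and Uqcrq (0.12) did not pass. The lowest member was Uqcr11, with 77.2, 62.5 and 60.4 CPM against 69.1, 62.9 and 75.3 CPM. Its groups overlapped throughout (0.05 ± 0.11 SE on the log2 scale, adjusted p = 0.771 in edgeR).

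Cycs, the soluble electron carrier that also triggers apoptosis when released, had 22.2, 26.8 and 18.0 CPM with vector and 25.4, 27.0 and 28.4 CPM with HMGB2. The ranges overlapped through vector 2, and the gene did not pass (0.27 ± 0.14 SE on the log2 scale, adjusted p = 0.189 in edgeR). Of 4 near-identical copies in the genome, Gm10053 is identical to the Cycs coding part and held 2109 counts. The 4 copies together held 2154 counts against 2177 of Cycs, which is 49.7% of the sum, so reads of Cycs may be divided between them. With the 4 copies added it did not pass either (0.265 on the log2 scale, adjusted p = 0.137 in edgeR).

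In complex IV 2 of 17 members rose (11.8%, against 14.4% of all tested genes), 16 had a positive log2 fold change, and the median was 0.19 (1.14-fold). Of its heart-type isoforms, Cox6a2 rose. Cox6a2, the subunit of adult heart and skeletal muscle (ENSMUSG00000030785, GRCm38 chromosome 7, 128205435 to 128206387, minus strand), had 39.5, 35.1 and 35.3 CPM with vector and 56.6, 48.6 and 59.8 CPM with HMGB2. The groups were well apart, with the lowest HMGB2 library above the highest vector library. Cox6a2 was 1.502-fold higher (0.59 ± 0.10 SE on the log2 scale, adjusted p = 0.00218 in edgeR), and 10.3% of its exon bases overlap Itgad on the other strand.

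Its liver-type counterpart Cox6a1 was at 249.1, 192.5 and 194.0 CPM with vector and at 203.0, 193.9 and 235.7 CPM with HMGB2. These ranges lay within one another, with vector 1 the highest of all 6 libraries. Cox6a1 was the lowest member of complex IV (-0.0064 ± 0.12 SE on the log2 scale, adjusted p = 0.975 in edgeR).

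Cox7a1, the heart-type form of the COX7A subunit, had 28.5, 18.4 and 25.0 CPM with vector and 30.5, 24.0 and 36.8 CPM with HMGB2, with overlapping groups (0.35 ± 0.18 SE on the log2 scale, adjusted p = 0.204 in edgeR). Cox7a2, its liver-type form, had 153.6, 106.3 and 106.1 CPM against 135.6, 123.6 and 158.8 CPM (0.19 on the log2 scale, adjusted p = 0.396 in edgeR). In both genes the vector libraries reached into the range of the HMGB2 libraries. Cox8b, a small heart-type subunit, had 10.2, 7.96 and 7.16 CPM with vector and 11.4, 8.48 and 12.9 CPM with HMGB2, and vector 1 lay above HMGB2 2 (0.38 ± 0.19 SE on the log2 scale, adjusted p = 0.174 in edgeR). Cox8a, its liver-type form, had 164.5, 132.3 and 128.1 CPM against 156.1, 146.2 and 167.7 CPM, with overlap (0.15 on the log2 scale, adjusted p = 0.35 in edgeR).

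The ratio of heart-type to liver-type isoform within a library does not depend on library size, and FPKM (counts per length and library total) was used to set both genes on the same scale per length. It can depend on the share of cardiomyocytes in the culture, whose markers had a median log2 fold change of 0.75. In bulk RNA such a change of cells cannot be told apart from a change of isoform within cardiomyocytes. Cox6a2 over Cox6a1 was 0.164, 0.188 and 0.188 with vector and 0.288, 0.259 and 0.262 with HMGB2. The groups were apart, and vector 1 and HMGB2 3 were not the high libraries here. The heart-type share of the pair was on average 15.2% and 21.2%, and the log2 ratio differed by 0.58 (1.5-fold; SD within groups 0.12 and 0.08; exact permutation p = 0.1, two-sided, the smallest that 3 against 3 can give, and 0.3 after Benjamini-Hochberg adjustment over 3 ratios).

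Cox7a1 over Cox7a2 was 0.327, 0.305 and 0.416 with vector and 0.397, 0.343 and 0.409 with HMGB2. Vector 3 held the highest ratio of all, and the log2 ratio differed by 0.14 (exact permutation p = 0.4, adjusted 0.4). Cox8b over Cox8a was 0.106, 0.103 and 0.096 with vector and 0.125, 0.0998 and 0.132 with HMGB2, and HMGB2 2 lay within the vector range. That log2 ratio differed by 0.215 (exact permutation p = 0.3, adjusted 0.4). Liver-type forms were the more abundant per length in all 3 pairs and all 6 libraries.

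**Figure D4:**
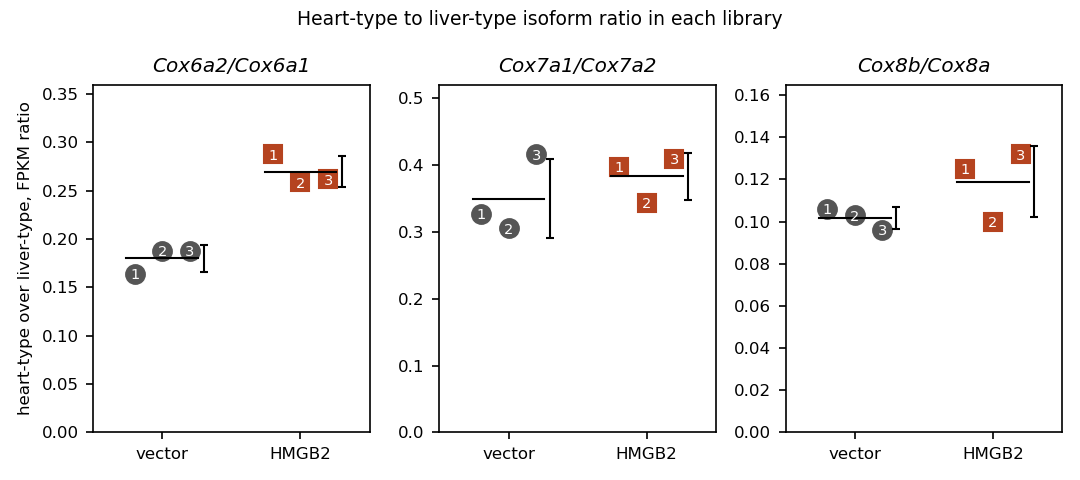
FPKM ratio of the heart-type to the liver-type isoform (y axis, from 0) in each library, numbered by replicate, with lines at the group mean and bars of ± SD (n = 3). Only Cox6a2 over Cox6a1 has groups that do not overlap, at 0.164 to 0.188 with vector and 0.259 to 0.288 with HMGB2.

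Of the other tissue-restricted forms, Cox6b2 rose and Cox4i2 did not pass. Cox6b2, a form known from testis (ENSMUSG00000051811, GRCm38 chromosome 7, 4751792 to 4753094, minus strand), was scarce, with 2.73, 1.75 and 2.86 CPM in the vector libraries and 4.21, 4.76 and 5.03 CPM in the HMGB2 libraries. The groups did not overlap, and the fold change of 0.93 ± 0.22 SE on the log2 scale (adjusted p = 0.0133 in edgeR) was the largest of the 44 members. Cox6b1, its ubiquitous counterpart, was at 273.6 ± 40.3 CPM with vector and 323.4 ± 46.4 CPM with HMGB2 (SD, n = 3 each; edgeR adjusted p = 0.202). Cox4i2, the form known from lung and hypoxic cells, had 7.01 to 10.02 CPM against 8.60 to 11.2 CPM (0.22 on the log2 scale, adjusted p = 0.392 in edgeR).

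The 7 subunits of complex IV outside the heart-type and liver-type pairs and the tissue-restricted forms held 0 members past the threshold in edgeR. They include Cox6b1 and Cox4i1, and their median log2 fold change was 0.08. Of these, Cox5a, a subunit on the matrix side, came nearest, with 188.7, 135.8 and 140.0 CPM against 194.4, 182.8 and 241.4 CPM (0.41 ± 0.14 SE on the log2 scale, adjusted p = 0.0623 in edgeR). It was the only 1 of the 7 with an unadjusted p under 0.05, and DESeq2 called it. Vector 1 lay between HMGB2 1 and HMGB2 2, which kept its groups from separating. The abundant Cox4i1, the largest nuclear subunit, had 385.6 to 517.3 CPM with vector and 423.9 to 518.8 CPM with HMGB2 (0.08 on the log2 scale, adjusted p = 0.684 in edgeR). Cox6b1, Cox7b, Cox5b, Cox7c and Cox6c had log2 fold changes from 0.06 to 0.24. Copies of Cox7c held 72.1% of the summed counts of that gene and its copies, so its own 7.01 to 10.6 CPM are uncertain. Cox7a2l, a factor that joins complexes III and IV, did not pass (0.18 on the log2 scale, adjusted p = 0.228 in edgeR). Cox6c2 is annotated as a processed pseudogene, it is 96.9% identical to the coding part of Cox6c, and it had 0.584 to 1.64 CPM over all libraries.

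In ATP synthase 5 of 17 members rose (29.4%, against 14.4% of all tested genes), 15 had a positive log2 fold change, and the median was 0.23 (1.17-fold). Of the 5 genes for the catalytic head and central stalk, 2 rose. Atp5a1, the alpha subunit of the head (ENSMUSG00000025428, GRCm38 chromosome 18, 77773729 to 77782869, plus strand), had 1258, 1092 and 1083 CPM with vector and 1492, 1523 and 1658 CPM with HMGB2. Its groups were far apart (0.45 ± 0.08 SE on the log2 scale, 1.36-fold, adjusted p = 0.00431 in edgeR). Atp5b, the catalytic beta subunit and the most abundant member by counts, had 2090, 1815 and 1800 CPM against 2147, 2148 and 2398 CPM. Its groups did not overlap, but it did not pass (0.23 ± 0.09 SE on the log2 scale, adjusted p = 0.0785 in edgeR).

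Atp5c1, the gamma subunit that turns inside the head (ENSMUSG00000025781, GRCm38 chromosome 2, 10056016 to 10080510, minus strand), had 292.1, 248.7 and 242.5 CPM with vector and 343.9, 341.8 and 401.4 CPM with HMGB2. The groups did not overlap, and the rise was 1.39-fold (0.47 ± 0.10 SE on the log2 scale, adjusted p = 0.0069 in edgeR). Atp5d and Atp5e, the small delta and epsilon subunits of the stalk, did not pass (0.11 and 0.06 on the log2 scale).

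The 3 c-ring genes code for the same mature c subunit, which turns in the membrane, with different import sequences, and 2 of them rose. Atp5g1 had 27.3, 22.7 and 19.3 CPM with vector and 34.3, 29.9 and 30.9 CPM with HMGB2, without overlap (0.46 ± 0.13 SE on the log2 scale, adjusted p = 0.0266 in edgeR). Its copy Gm10039 is 99.8% identical in the coding part and held 7835 counts against 2435 of Atp5g1, with a log2 fold change of 0.59 of its own, so reads of both may be counted for each other. With the copy added, Atp5g1 had 107.5, 87.6 and 84.0 CPM against 136.7, 126.5 and 148.3 CPM (0.56 on the log2 scale, adjusted p = 0.00424 in edgeR). Atp5g1 alone lost its call without vector 2, vector 3, HMGB2 1 or HMGB2 2 (adjusted p up to 0.101).

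Atp5g3, the most abundant c-ring gene, had 368.3, 287.4 and 287.3 CPM with vector and 391.1, 378.0 and 474.3 CPM with HMGB2. Vector 1 came within a few percent of HMGB2 2, and the rise was 0.40 ± 0.12 SE on the log2 scale (adjusted p = 0.0389 in edgeR). As for Cyc1, the call was lost without vector 2, vector 3 or any 1 HMGB2 library and with limma (adjusted p up to 0.149 over all alternatives). Atp5g2 had 3.29, 2.99 and 2.003 CPM against 2.34, 2.97 and 2.73 CPM, with full overlap. It was the lowest of the ATP synthase genes (-0.04 ± 0.24 SE on the log2 scale, adjusted p = 0.923 in edgeR).

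Of the 4 peripheral stalk genes, Atp5o rose. Atp5o, the subunit that joins the stalk to the head (OSCP), had 246.2, 216.9 and 202.1 CPM with vector and 253.6, 267.8 and 304.9 CPM with HMGB2. The groups were close but did not overlap (0.31 ± 0.10 SE on the log2 scale, adjusted p = 0.0432 in edgeR). Its call was lost without vector 2, vector 3 or any 1 HMGB2 library, with size factors of the RLE type and with limma (adjusted p up to 0.152 over all alternatives), and 18.1% of its exon bases overlap Gm15976 on the other strand. Atp5pb (0.27), Atp5j (0.25) and Atp5h (0.19), the other stalk subunits, did not pass. The 5 small membrane subunits, some of which hold the enzyme in dimers, are Atp5mpl, Atp5k, Atp5j2, Atp5md and Atp5l, and they held 0 members past the threshold in edgeR, 0 at an unadjusted p under 0.05 and 0 in DESeq2. Their log2 fold changes ran from -0.04 (Atp5l) to 0.31 (Atp5mpl). Near-identical copies held 52.9% of the summed counts of Atp5l and its copies, and with them added its log2 fold change was 0.0885 (edgeR adjusted p = 0.581), so its sign is uncertain.

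Differences between the complexes were small beside the spread of their members, and no test of them was made. In the vector libraries the median FPKM of the members was 119, 92.1 and 89.3 for complex III, 75.7, 61.7 and 60.8 for complex IV and 90.01, 66.98 and 66.66 for ATP synthase. In the HMGB2 libraries it was 115, 113 and 122 for complex III, 83.3, 74.0 and 89.1 for complex IV and 89.0, 73.8 and 95.9 for ATP synthase. In each complex vector 1 reached into or above the range of the HMGB2 libraries. Across the 44 members the log2 fold change was not ordered by length (Spearman's rho 0.016) or by vector CPM (0.12), while shorter members had larger SEs (rho -0.41; all members share the same 6 libraries). The 10 that passed had a median length of 2063 bases and the other 34 one of 1471 bases.

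The counted rows of the mitochondrially encoded partners of these complexes did not move with the nuclear members. Of 6, 0 rose and 2 fell (14.4% and 10.8% of all tested genes), with a median log2 fold change of -0.30. At an unadjusted edgeR p under 0.05 and in DESeq2, 0 were higher. Leaving out a library gave 1 to 2 that fell, and 4 fell without vector 1 and HMGB2 3 together or with no filter on low counts. mt-Cytb, the cytochrome b of complex III, had 6503, 6862 and 6529 CPM with vector and 5309, 5252 and 5241 CPM with HMGB2, with groups far apart (-0.33 ± 0.06 SE on the log2 scale, adjusted p = 0.00481 in edgeR), a call lost with limma at both pseudocounts (adjusted p up to 0.0661 over all alternatives). mt-Atp6, the proton channel subunit of ATP synthase, had 32.3, 29.7 and 30.4 CPM against 24.3, 17.6 and 24.6 CPM (-0.47 ± 0.13 SE on the log2 scale, adjusted p = 0.0258 in edgeR), a call lost without vector 2, vector 3 or HMGB2 2 (adjusted p up to 0.0656). The catalytic core of complex IV did not pass. mt-Co1 was at 21990 ± 815.6 CPM with vector and 21550 ± 341.4 CPM with HMGB2 (log2 fold change -0.03), mt-Co2 at 95.5 ± 16.6 and 78.5 ± 11.7 CPM (-0.28), and mt-Co3 at 35.6 ± 5.07 and 28.5 ± 5.22 CPM (-0.32; SD, n = 3 each). mt-Atp8, which shares its transcript with mt-Atp6, was at 5.26 ± 0.667 and 4.52 ± 1.52 CPM (-0.21). The CPM of mt-Co2, mt-Co3, mt-Atp6 and mt-Atp8 were far below those of mt-Co1 and mt-Cytb. Reads shared with nuclear copies of mitochondrial DNA were not examined here, so these low rows may not give the level of the transcripts.

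The summed CPM of the nuclear members over that of the mitochondrially encoded partners was higher with HMGB2, without overlap, for complex III and ATP synthase, and overlapped for complex IV. For complex III this ratio was 0.228, 0.175 and 0.181 with vector and 0.294, 0.290 and 0.344 with HMGB2, 1.59-fold apart. For ATP synthase it was 155.5, 138.5 and 130.5 with vector and 197.9, 286.4 and 240.9 with HMGB2, 1.71-fold apart, over a partner sum of only 20.97 to 37.05 CPM. For complex IV it was 0.112, 0.0801 and 0.0834 with vector and 0.101, 0.0934 and 0.120 with HMGB2, and vector 1 lay above HMGB2 1 and HMGB2 2. The partner sum of complex IV is nearly all mt-Co1. The low partner sum of ATP synthase may miss shared reads, so the ratios are not comparable between complexes.

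Assembly factors of these complexes were not called in the order of the subunits. Among subunits 3 of 9 rose in complex III, 2 of 17 in complex IV and 5 of 17 in ATP synthase. The shares of all tested genes were 14.4% higher and 10.8% lower. Of 23 tested factors of complex IV 8 rose and 0 fell (0 fell also at an unadjusted edgeR p under 0.05 and in DESeq2), with a median log2 fold change of 0.26. Taco1, which activates translation of the mitochondrial COX1 subunit, went from 11.8 ± 1.16 to 21.4 ± 1.24 CPM (0.86 on the log2 scale, adjusted p = 0.000455 in edgeR). Cmc2 (0.93, adjusted p = 0.00374), the chaperone Cox20 (0.66, 0.0133) and Coa5 (0.27, 0.0155) also rose in edgeR, and the calls of Cox20 and Coa5 were lost without vector 2 or vector 3, that of Coa5 also without HMGB2 1 or HMGB2 2, among 5 alternatives in all. Leaving out a library gave 2 to 11 factors of complex IV that rose, and leaving out vector 1 and HMGB2 3 together gave 13. Sco2 and Pet117 were too low to be tested, and Pet117 had 0 counts. Of 5 ATP synthase factors, Atpaf1, which brings the beta subunit into the head, went from 8.96 ± 1.49 to 18.9 ± 1.496 CPM, with no overlap (1.08 on the log2 scale, adjusted p = 0.000456 in edgeR). Tmem242, which helps to build the c-ring, rose as well (0.46, edgeR adjusted p = 0.0139), a call lost without vector 2, vector 3 or HMGB2 1. Of 6 factors of complex III 0 rose and 1 fell in edgeR (1 and 1 at an unadjusted p under 0.05, 0 and 0 in DESeq2). It was Ttc19, which clears fragments of the iron-sulfur protein (-0.37 on the log2 scale, adjusted p = 0.032 in edgeR), and its call was lost in 9 of 18 alternatives. Ndufa4, a complex IV subunit under an older complex I name, and Atpif1, the inhibitor of ATP synthase, did not pass (0.19 and 0.33).

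The complexes upstream in the chain had a similar sign, beside 14.4% of all tested genes higher and 10.8% lower. Of 37 complex I subunits 9 rose and 0 fell (14 and 0 at an unadjusted edgeR p under 0.05, 9 and 0 in DESeq2), with a median log2 fold change of 0.25, led by Ndufs3, Ndufab1, Ndufv3 and Ndufs7 (0.33 to 0.55). Leaving out a library gave 0 to 27, with 0 without vector 2 or vector 3, and 29 rose without vector 1 and HMGB2 3 together. All 4 complex II subunits rose, with a median of 0.54. Sdhc went from 96.1 ± 5.75 to 144.8 ± 6.81 CPM (0.59 on the log2 scale, adjusted p = 0.00046 in edgeR), and Sdhb had the smallest change (0.37, adjusted p = 0.0417) and lost its call in 7 of 18 alternatives. Of 5 genes of ATP export 2 rose: the mitochondrial creatine kinase Ckmt2 (0.99 on the log2 scale, adjusted p = 1.89e-05 in edgeR) and the muscle ADP/ATP carrier Slc25a4 (0.56, 0.00455).

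Known transcriptional regulators of respiratory chain genes moved in both directions. Of 16, 7 rose and 4 fell in edgeR (14.4% and 10.8% of all tested genes), with a median log2 fold change of -0.04. The estrogen-related receptors and their coactivators were among those that rose. Esrrb had 1.04, 1.31 and 1.65 CPM with vector and 6.43, 7.93 and 6.79 CPM with HMGB2, with no overlap (2.38 ± 0.21 SE on the log2 scale, adjusted p = 5.18e-05 in edgeR). Esrrg went from 10.4 ± 0.425 to 23.2 ± 2.36 CPM (1.16, 8.64e-05) and the coactivator Ppargc1a from 13.6 ± 2.06 to 30.2 ± 2.69 CPM (1.15, 0.000205). Mef2c, a muscle transcription factor, rose by 0.51 (0.0014), and Ppargc1b, Esrra and Ppara were the other rises. The call of Ppara was lost in 7 of 18 alternatives, DESeq2 among them, and that of Esrra in 3. Those that fell were the ETS factor subunits Gabpa (-0.32, edgeR adjusted p = 0.00896) and Gabpb1 (-0.26, 0.0431), the mitochondrial transcription factor Tfb2m (-0.42, 0.0167) and the coactivator Pprc1 (-0.36, 0.0278). The call of Gabpb1 was lost in 12 of 18 alternatives, that of Pprc1 in 5, that of Tfb2m in 3 and that of Gabpa in 2. Leaving out a library gave 1 to 3 regulators that fell, and 0 fell in 1 of the other alternatives. Nrf1, Tfam, Yy1, Mef2a and Mef2d did not pass, though Yy1 was lower past the threshold in 2 of 18 alternatives. Whether any of these regulators acts on the members was not tested.

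**Figure D5:**
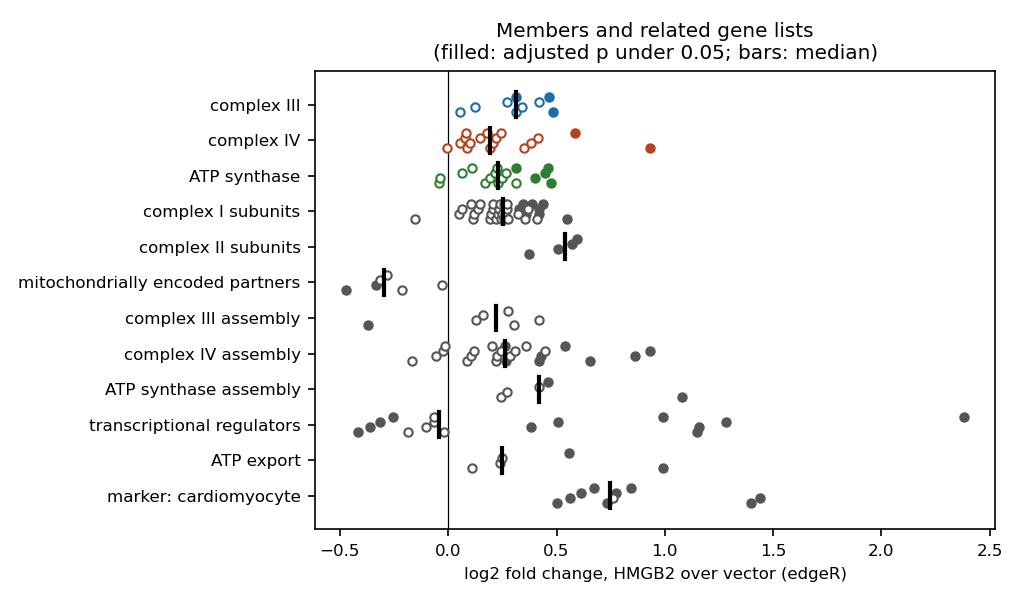
Log2 fold change (x axis, HMGB2 over vector, edgeR) of the members by complex and of related gene lists, 1 point per gene, filled for an adjusted p under 0.05, with black bars at the median of each list. The medians of the member complexes lie at 0.19 to 0.32, that of complex II at 0.54, that of the cardiomyocyte markers at 0.75 and that of the mitochondrially encoded partners at -0.30.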

How the data were processed

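Bulk RNA sequencing of 6 libraries (3 vector, 3 HMGB2) gave the deposited table of raw counts per Ensembl gene. A second deposited table holds FPKM of the same genes, which for the 2159 genes with at least 20 FPKM are the counts rescaled by length and library total. Per the labels' protocols, extraction used TRIzol and library construction the kit VAHTS Universal V5. Per the submitters' processing notes, the build was mm10 and the tools were StringTie 1.3.3b, HTSeq 0.6.1, HISAT2 2.2.1 and FastQC 0.10.1, with no role stated, and the strand setting is not given in the sources used here. Columns of both tables were matched to samples through the group and replicate number in their names. Gene positions are from GENCODE M21 (GRCm38), matched by Ensembl ID.

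Genes passing filterByExpr (minimum count 10, minimum total 15) in edgeR 4.0.16 (R 4.3.3) were scaled by TMM and fitted with a robust quasi-likelihood model with the group as its only term, and p-values were adjusted by Benjamini-Hochberg over all 15429 genes. The standard error (SE) was obtained by dividing the size of the log2 fold change by the root of the F statistic. FPKM ratios of isoforms were compared by an exact permutation test. Totals and factors (TMM 0.986 to 1.016) are per library, and no pair of libraries in a group agreed within sampling noise (chi-square per degree of freedom at least 2.01). The labels do not say whether replicates were separate cultures, so the p-values cover the spread among these libraries only, and that spread may be technical.

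The members, the gene lists, the grouping by role and the tests were chosen with earlier results of these data known. All members may be named. Values per library are given for the isoform pairs, for the 3 members with the smallest p and the lowest member of each complex, and for Cycs. Of other lists, up to 4 called genes with the smallest p are named, or the 2 highest where none passed. The other 7 called regulators, and the 5 that did not pass, were named after their values were seen. Values per library of other members that passed or came near were added after they were seen. Alternatives were other scalings and filters, DESeq2 1.42.0, limma 3.58.1 on log2(FPKM + 0.1) and log2(FPKM + 1), a replicate block, a correction for gene length and leaving out libraries. Counts of near-identical copies (at least 95% identical over at least 90% of the coding part) were added to those of the member in an alternative chosen after seeing the data. The test was checked on simulated counts of 15185 genes with 200 changed: it recovered 11.9% of 67 genes changed 1.25-fold, 44.8% of 67 changed 1.5-fold and 86.4% of 66 changed 2-fold, with 11 false calls. Genes were drawn independently there, without the shift of vector 1 and HMGB2 3 with gene length. The 11 false calls therefore do not give the error rate in these data.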

Additional observations from a re-analysis of the deposited data

How the results depend on the processing

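No member that passed changed its direction, 0 members were lower under any of the 18 alternatives, the median log2 fold change of the members ran from 0.16 to 0.38, and each isoform ratio kept its sign and moved by less than the spread between libraries under the 11 alternatives run on it. The number of members that rose, 10 as reported, was 18 with no filter on low counts (complex III 7, complex IV 4), 6 with limma on log2(FPKM + 0.1) or log2(FPKM + 1) (complex III 1, ATP synthase 3 under both), and 24 with the length trend removed (complex III 7, complex IV 7, ATP synthase 10). Without vector 1 and HMGB2 3 it was 32 (complex III 8, complex IV 9, ATP synthase 15), with 2986 genes lower over the whole table. Leaving out 1 library gave 5 to 31 members, 1 to 7 of complex III, 2 to 9 of complex IV and 2 to 15 of ATP synthase, with 1567 to 2526 genes higher and 866 to 1960 lower over all genes. In each case the highest number was that without vector 1, which stands apart with gene length. The replicate block gave 6 members (complex III 1, ATP synthase 3), 1459 genes higher and 754 lower over all genes. Under it the calls of Cyc1, Uqcrh, Atp5g3, Atp5o, mt-Cytb, Coa5, Esrra, Ppara and the 4 regulators that fell were among those lost. Libraries with the same number did not deviate together (correlations -0.318, 0.231 and -0.375), vector 1 went best with HMGB2 3 (0.521), and the numbers were not taken to pair the libraries. In all settings with at least 10 calls the 10 members reported were among them. With the counts of near-identical copies added, a choice made after seeing the data, 10 of 43 members rose. In the simulated counts most changes of up to 1.5-fold were missed. Far fewer genes were changed there than were called in these data, so those recovery rates do not give the share missed here. A member that did not pass is still not shown to be unchanged.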
